A study of Homo sapiens with 4 samples.

Results

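The nuclear factor kappa B (NF-kB) genes described here are 10 genes chosen by name for their place in the pathway, out of 52402 gene symbols in the count tables. They comprise the 5 DNA-binding subunits NFKB1, NFKB2, RELA, RELB and REL, the 3 classical inhibitors NFKBIA, NFKBIB and NFKBIE, and the feedback genes TNFAIP3 and BIRC3. These members and the pathway lists below were chosen with earlier results of these data known. Their counts beside background shares are a description and not a test. RNA was sequenced from 4 cultures of ovarian cancer cells: SKOV3 with a knockout of the envelope gene of the endogenous retrovirus HERV-K119 (SKOV3 KO), SKOV3 mock control cells, OVCAR3 with the same knockout (OVCAR3 KO) and OVCAR3 mock control cells. All 4 cultures, mock included, had been treated with hygromycin at 100 µg/mL for 2 days, starting about 18 h after transfection, and the knockout was made with CRISPR-Cas9. Each group held 1 library, and whether the knockout cells were a clone or a pool is not given in the sources used here.

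NF-kB subunits act as dimers that are held in the cytoplasm by inhibitor of kappa B (IkB) proteins, until an IkB kinase marks the inhibitor for destruction and the dimer enters the nucleus. RELA and NFKB1 make up the classical dimer downstream of tumour necrosis factor and interleukin-1 receptors, while RELB and NFKB2 make up the dimer of the alternative route, which depends on processing of the NFKB2 precursor. Several genes of the system, among them NFKBIA, TNFAIP3 and BIRC3, are themselves NF-kB targets and feed back on it, and in ovarian cancer cells the pathway is known for its part in inflammatory cytokine production and in cell survival.

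To show where NF-kB can bind at genes of its own system, stretches before an annotated start site of 5 members are printed as RefSeq gives them on GRCh38.p14, with matches to the kappaB consensus in capitals. The NFKB2 stretch is chr10:102395455-102395704 on the plus strand and the NFKBIA stretch is chr14:35404750-35404999 on the minus strand. The REL stretch is chr2:60881324-60881550, the TNFAIP3 stretch chr6:137867009-137867217 and the BIRC3 stretch chr11:102317234-102317479, all 3 on the plus strand. The NFKB2 and TNFAIP3 stretches lie inside the gene bodies and precede an internal start site, and NFKB2 has other windows further upstream.
NFKB2: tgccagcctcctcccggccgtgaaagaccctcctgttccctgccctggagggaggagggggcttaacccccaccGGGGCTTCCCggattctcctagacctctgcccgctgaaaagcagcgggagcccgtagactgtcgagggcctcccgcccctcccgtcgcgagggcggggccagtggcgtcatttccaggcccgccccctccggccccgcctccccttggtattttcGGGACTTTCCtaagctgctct
NFKBIA: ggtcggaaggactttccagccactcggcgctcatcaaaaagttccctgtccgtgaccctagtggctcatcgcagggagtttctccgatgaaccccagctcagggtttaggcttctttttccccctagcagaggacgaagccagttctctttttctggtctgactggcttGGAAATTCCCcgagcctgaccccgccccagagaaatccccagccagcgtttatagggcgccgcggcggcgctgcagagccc
REL: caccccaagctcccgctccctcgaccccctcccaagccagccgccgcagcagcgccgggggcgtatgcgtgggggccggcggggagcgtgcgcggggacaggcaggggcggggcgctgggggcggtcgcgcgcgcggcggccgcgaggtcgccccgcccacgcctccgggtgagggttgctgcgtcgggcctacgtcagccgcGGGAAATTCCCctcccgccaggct
TNFAIP3: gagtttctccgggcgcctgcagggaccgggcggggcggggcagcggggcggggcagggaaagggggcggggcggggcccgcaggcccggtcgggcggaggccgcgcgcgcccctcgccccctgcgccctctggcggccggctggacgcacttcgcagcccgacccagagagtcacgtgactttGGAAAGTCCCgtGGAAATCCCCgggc
BIRC3: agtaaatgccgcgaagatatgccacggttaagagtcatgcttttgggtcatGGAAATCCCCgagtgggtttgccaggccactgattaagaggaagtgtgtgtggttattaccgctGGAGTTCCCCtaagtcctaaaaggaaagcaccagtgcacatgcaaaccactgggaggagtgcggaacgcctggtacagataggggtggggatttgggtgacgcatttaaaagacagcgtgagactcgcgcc

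The gene bodies on the same build are NFKB1 at chr4:102501359-102617302, NFKB2 at chr10:102394110-102402529, RELA at chr11:65653601-65663857, RELB at chr19:45001464-45038192 and REL at chr2:60881574-60931612. The inhibitor genes are NFKBIA at chr14:35401513-35404749, NFKBIB at chr19:38899666-38908889 and NFKBIE at chr6:44258166-44265551, and the feedback genes are TNFAIP3 at chr6:137866349-137883312 and BIRC3 at chr11:102317484-102339403. The RefSeq table used here gave start-site windows for 8 of the 10 members, in 13 windows, and 7 of the 8 held a match to the kappaB consensus in at least 1 window. RELA had no match in either of its windows. Both strands were searched, and a stretch that matched on both at the same position counted once. Counted by window, 8 of the 13 member windows held a match, beside 3498 of 35116 (9.96%) over all windows of the table. NFKB2, TNFAIP3 and BIRC3 each showed a pair of matched stretches, which in TNFAIP3 lie almost side by side. A match describes the letters of the window, and binding was not measured.

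The libraries held between 15145483 and 22057693 counts. The OVCAR3 KO library stood apart from the other 3: 21.9% of its counts came from mitochondrially encoded genes, against 5.16% to 5.93% in the others, and the nuclear RNA NEAT1 was at 1610 CPM there (counts scaled to the size of the library), against 142 CPM in OVCAR3 mock. The targeted provirus was not analysed here, and the RNA level of the knocked-out gene gives no check of the labels. The line labels were met in part. MUC16, the CA125 antigen for which OVCAR3 is known, had 91 counts (6.18 CPM) in OVCAR3 KO and 45 (2.74 CPM) in OVCAR3 mock. It had 1 count in each SKOV3 library. CDKN2A and ERBB2 did not follow what is known of SKOV3, which carries a CDKN2A deletion and an ERBB2 amplification. CDKN2A was at 91.2 CPM in SKOV3 KO and 90.6 CPM in SKOV3 mock, against 34.1 CPM in OVCAR3 KO and 50.5 CPM in OVCAR3 mock. ERBB2 was at 55.7 CPM in SKOV3 KO and 58.5 CPM in SKOV3 mock, against 32 CPM in OVCAR3 KO and 73.3 CPM in OVCAR3 mock. SKOV3 and OVCAR3 therefore stand below for the libraries so labelled. All 7 epithelial markers (such as EPCAM and KRT8) reached 1 CPM in each library. Of the leukocyte markers CD3E and MS4A1 were at 0 counts in all 4 libraries, as was PTPRC, which stands in 2 rows, while CD68 was at 8.21 to 35.4 CPM. Of the fibroblast markers COL3A1 and LUM were at 0, while COL1A1 was at 17.4 to 35.0 CPM.

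In the OVCAR3 pair, 8 of the 9 measurable NF-kB genes were lower in the knockout library than in mock, and 6 of them at least 2-fold lower: NFKB1, NFKB2, RELA, RELB, NFKBIE and TNFAIP3. REL was the exception and was higher. In the SKOV3 pair no member passed 2-fold in either direction, and RELB and TNFAIP3 were the highest of the members, at 1.40-fold and 1.36-fold over mock. With 1 library a group these are differences between libraries, with no replicate check and no p-value within a pair. The 6 of 9 at least 2-fold lower in OVCAR3 stand beside a background of 15.4% of all measured genes lower by that much in that pair, or 18.3% of protein-coding genes. The counts at least 2-fold higher, 0 of 9, stand beside 22.5% of all measured genes, or 13% of protein-coding genes. Since the members were chosen with earlier results of these data known, neither comparison is a test. The balance over all genes turned with the scaling: 2390 genes were lower and 3504 higher, against 3115 lower and 2817 higher with DESeq2 size factors and 3417 lower and 2594 higher with TMM factors from all genes. In SKOV3 the backgrounds were 0.739% lower and 0.799% higher. Levels are CPM scaled by TMM factors. Each ratio is the log2 of the knockout level over the mock level, with 2 prior counts added, and its 95% interval covers counting error only. In these bulk libraries, fewer cells that express a gene and less RNA per cell cannot be told apart.

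**Figure D1:**
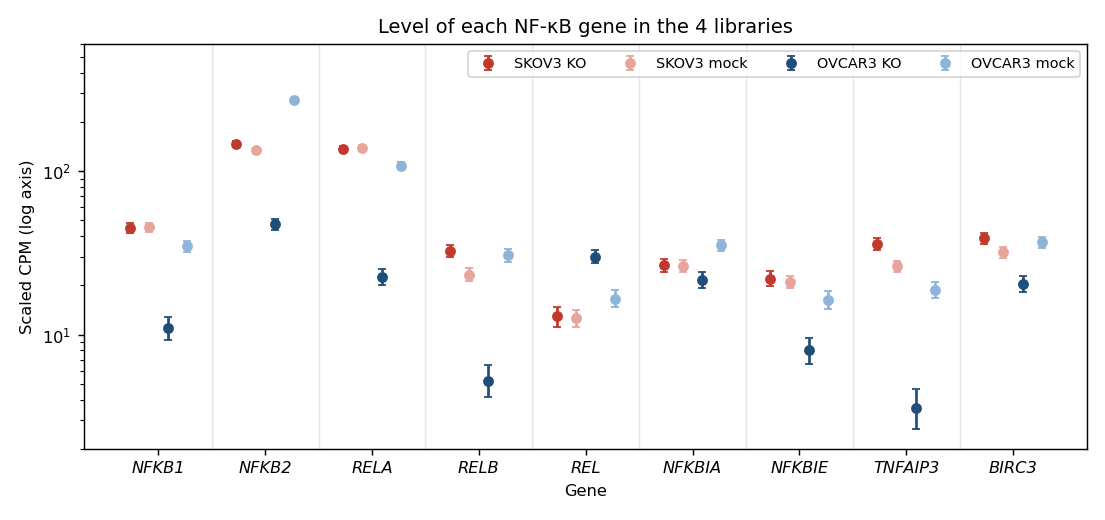
Scaled CPM (log axis) of the NF-kB genes in the 4 libraries, each point 1 library with its exact 95% counting interval and the knockout left of its mock. In OVCAR3, TNFAIP3 stands at 3.53 CPM in the knockout and 18.7 CPM in mock, while REL stands at 30 CPM in the knockout and 16.6 CPM in mock.

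Among the subunits, NFKB2, the precursor of p52, was the most abundant per length in OVCAR3 mock. It had 147 CPM in SKOV3 KO and 134 CPM in SKOV3 mock, and 47.3 CPM in OVCAR3 KO against 272 CPM in OVCAR3 mock. The OVCAR3 mock library was the highest of the 4 and OVCAR3 KO the lowest, with both SKOV3 libraries between them. The OVCAR3 ratio was -2.52 (-2.64 to -2.41), a level 5.74-fold lower in the knockout, from 697 against 4467 counts. The SKOV3 ratio was 0.14 (0.06 to 0.22), or 0.06 with a trend on GC content and transcript length taken out. RELB, its partner in the alternative route, had 32.6 CPM in SKOV3 KO and 23.3 CPM in SKOV3 mock, and 5.23 CPM in OVCAR3 KO against 30.6 CPM in OVCAR3 mock. Its OVCAR3 ratio of -2.52 (-2.91 to -2.20) matched that of NFKB2 to 2 decimals, while in SKOV3 it was the highest of all members at 0.48 (0.31 to 0.66). Both genes of the alternative dimer were thus slightly above mock in SKOV3 and far below mock in OVCAR3.

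RELA, the main transactivating subunit of the classical dimer, had 137 CPM in SKOV3 KO and 139 CPM in SKOV3 mock, and 22.5 CPM in OVCAR3 KO against 108 CPM in OVCAR3 mock. The OVCAR3 KO library alone was low, and the other 3 libraries lay within 1.5-fold of each other. The ratio was -2.25 (-2.43 to -2.09) in OVCAR3, 4.77-fold lower, and -0.02 (-0.10 to 0.06) in SKOV3. NFKB1, the precursor of p50, had 45.0 CPM in SKOV3 KO and 45.4 CPM in SKOV3 mock, and 10.9 CPM in OVCAR3 KO against 34.6 CPM in OVCAR3 mock. Here too OVCAR3 KO was the low library, and the difference was smaller than for RELA, with a ratio of -1.65 (-1.93 to -1.41), 3.15-fold lower. In SKOV3 the NFKB1 ratio was -0.01 (-0.15 to 0.13).

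REL (c-Rel), a subunit best known from lymphocytes, went the other way in OVCAR3. It had 12.9 CPM in SKOV3 KO and 12.6 CPM in SKOV3 mock, and 30 CPM in OVCAR3 KO against 16.6 CPM in OVCAR3 mock, so that OVCAR3 KO was the highest of the 4 libraries. The ratio was 0.85 (0.63 to 1.08) in OVCAR3, short of 2-fold, and 0.03 (-0.24 to 0.29) in SKOV3. REL has the longest transcript of the members (11255 bases), with a GC content of 38.7%, and 5702 of its exon bases are shared with the same-strand transcript AC010733.2 in GENCODE 29, a transcript with no row of that name in the count tables, so REL counts may include its reads. Over protein-coding genes the OVCAR3 ratio moved with GC content, with a median of 0.47 over the 2426 genes lowest in GC (30.2% to 40.9%) and -0.70 over the 2426 highest (58.6% to 74.7%). The SKOV3 medians of the same genes were -0.02 and 0.05. With a trend on GC content and transcript length taken out, the REL ratio in OVCAR3 was 0.33, with NFKB2 at -1.95, RELB at -2.04, RELA at -1.81 and NFKB1 at -1.44. The sign of no subunit in OVCAR3 turned with the trend removed, and the part of GC content in these ratios was otherwise not tested.

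The make-up of the subunit pool needs no scaling between libraries, since it is a share of the subunit reads within each library. It was not adjusted for GC content, and reads of AC010733.2 may be in the REL share. REL gave 25.9% of the subunit reads in OVCAR3 KO (exact 95% interval 23.8% to 28.0%, of 1709 reads) and 3.60% in OVCAR3 mock (3.19% to 4.04%, of 7583 reads). NFKB2 gave 40.8% in OVCAR3 KO (38.4% to 43.2%) and 58.9% in OVCAR3 mock (57.8% to 60.0%). The REL share was thus higher and the NFKB2 share lower in the knockout beyond counting error. In SKOV3 the REL share was 3.43% in KO (2.98% to 3.93%) and 3.57% in mock, within counting error of each other. RELB gave 8.70% of subunit reads in SKOV3 KO (7.99% to 9.44%) and 6.58% in SKOV3 mock (6.05% to 7.15%). Read shares weigh genes by transcript length. As a share of the summed CPM per kb of the 5 subunits, REL was at 9.34% in OVCAR3 KO and 1.08% in OVCAR3 mock. By the same measure NFKB2 was at 48.5% in OVCAR3 KO and 58.2% in OVCAR3 mock. The directions held, and the differences in percentage points were smaller than in the read shares.

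**Figure D2:**
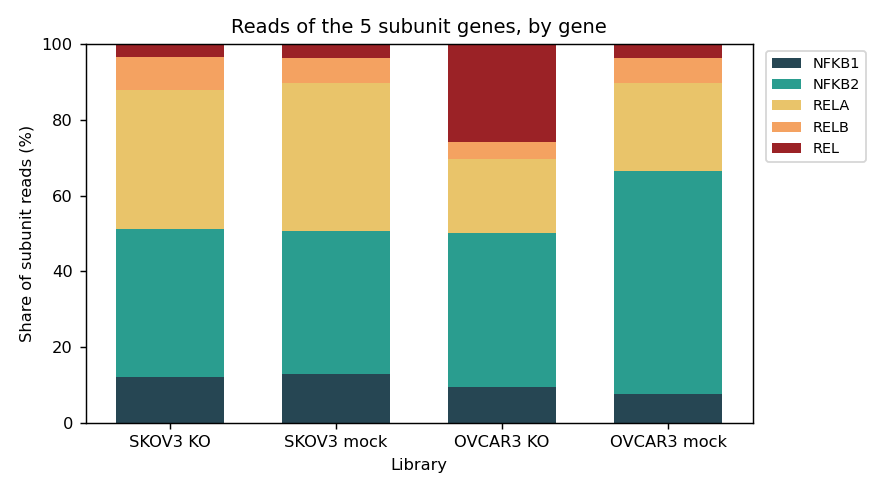
Share of the reads of the 5 subunit genes (percent of subunit reads) that each subunit gave in each library, with the knockout left of its mock. REL takes 25.9% of the bar in OVCAR3 KO and 3.60% in OVCAR3 mock, beside 3.43% in SKOV3 KO and 3.57% in SKOV3 mock.

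Among the inhibitors, NFKBIA (IkB alpha), the inhibitor that NF-kB itself induces, differed less in OVCAR3 than the classical subunits RELA and NFKB1. It had 26.5 CPM in SKOV3 KO and 26.2 CPM in SKOV3 mock, and 21.7 CPM in OVCAR3 KO against 35.1 CPM in OVCAR3 mock. The ratio was -0.69 (-0.90 to -0.50) in OVCAR3, 1.62-fold lower, and 0.02 (-0.17 to 0.20) in SKOV3. NFKBIE (IkB epsilon) had 22.0 CPM in SKOV3 KO and 21.0 CPM in SKOV3 mock, and 8.01 CPM in OVCAR3 KO against 16.3 CPM in OVCAR3 mock. At -1.02 (-1.35 to -0.71) NFKBIE stood just inside the 2-fold mark in OVCAR3, and its interval spans that mark. The members just outside it were BIRC3 at -0.84, NFKBIA at -0.69 and, on the higher side, REL at 0.85. With the GC and length trend removed NFKBIE was at -0.52 and NFKBIA at -0.63.

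NFKBIB (IkB beta) could not be measured. It had 1 count in SKOV3 KO, 1 in SKOV3 mock, 0 in OVCAR3 KO and 1 in OVCAR3 mock, all under the floor of 3 counts (0.133 to 0.204 CPM), and no ratio is given. Its symbol stands in 2 rows of the tables. On chromosome 19 around it, 16 symbols have 2 rows each, and 15 of these had at most 15 counts in every library. Among them were ACTN4, an actin crosslinker, and EIF3K, a translation factor subunit that dividing cells use, both at 0 in all 4 libraries. The low NFKBIB counts are therefore read as a limit of these tables and not as a level of the gene. On the opposite strand, SIRT2 shares 40 exon bases with it.

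The feedback genes split in size. TNFAIP3 (A20), a ubiquitin-editing enzyme that shuts off signalling to the IkB kinase, had 35.7 CPM in SKOV3 KO and 26.1 CPM in SKOV3 mock, and 3.53 CPM in OVCAR3 KO against 18.7 CPM in OVCAR3 mock. The OVCAR3 KO value rested on 52 counts, and its ratio of -2.37 (-2.86 to -1.98) is 5.18-fold lower. The SKOV3 ratio was 0.45 (0.28 to 0.62). BIRC3 (cIAP2), a ubiquitin ligase that protects cells from death-receptor signals, had 38.8 CPM in SKOV3 KO and 31.8 CPM in SKOV3 mock, and 20.5 CPM in OVCAR3 KO against 36.7 CPM in OVCAR3 mock. Its ratio was -0.84 (-1.04 to -0.64) in OVCAR3, 1.79-fold lower, and 0.29 (0.13 to 0.45) in SKOV3. BIRC3 is the AT-richest member (GC 34.8%), and with the GC and length trend removed its OVCAR3 ratio was -1.48, further from 0 and past 2-fold. TNFAIP3 and BIRC3 were thus above mock in SKOV3 and below mock in OVCAR3. With NFKB2 and RELB, 4 of the 9 measured members had those signs with both intervals clear of 0, as did 6.97% of all genes measured in both pairs. The intervals are those of the ratios as counted, and NFKB2 in SKOV3 was at 0.06 with the trend removed.

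**Figure D3:**
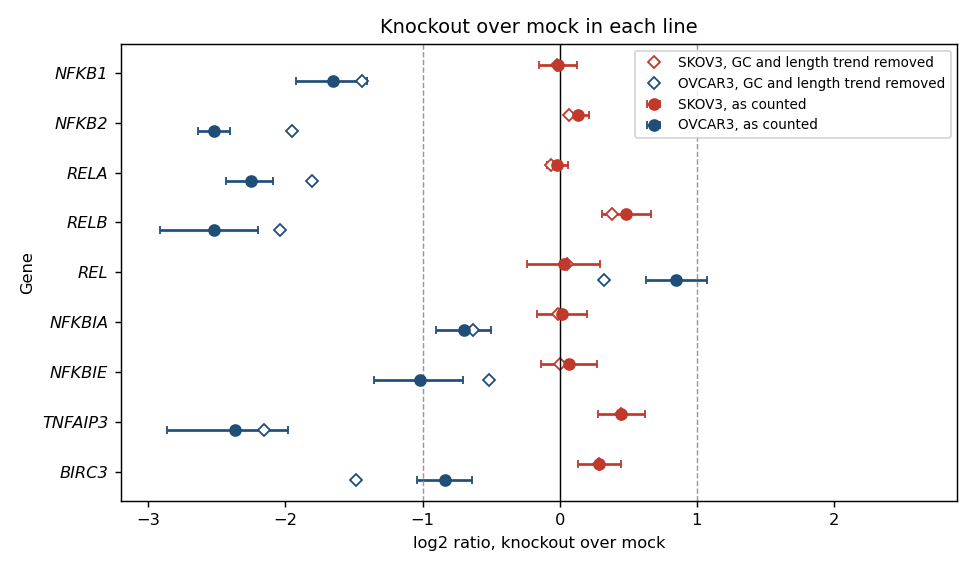
Log2 ratio of knockout over mock for each NF-kB gene in the SKOV3 pair and the OVCAR3 pair, with exact 95% counting intervals and the value after the GC and length trend is removed. In OVCAR3 the members run from -2.52 (NFKB2 and RELB) to 0.85 (REL), and in SKOV3 from -0.02 (RELA) to 0.48 (RELB).

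The members were thus far more spread in the OVCAR3 pair than in the SKOV3 pair. The median of the 9 measured members was -1.65 in OVCAR3, beside a median of 0.16 over 15560 genes, and 0.07 in SKOV3, beside 0.01. Among protein-coding genes the OVCAR3 median was -0.02. In the OVCAR3 pair the mitochondrial share, NEAT1 and the marker genes moved as well. The 7 epithelial markers summed to 2100 CPM in OVCAR3 KO and 7620 CPM in OVCAR3 mock. In SKOV3 they summed to 5170 CPM in KO and 5570 CPM in mock. Most of the OVCAR3 difference came from the keratins KRT8, KRT18 and KRT19, and CDH1 and CLDN4 were lower too. EPCAM was at 268 CPM in OVCAR3 KO and 315 CPM in OVCAR3 mock, and CLDN3 at 7.53 CPM and 6.45 CPM. The 8 leukocyte markers summed to 10.1 CPM in OVCAR3 KO and 16.8 CPM in OVCAR3 mock, of which CD68 gave 8.21 CPM and 15.2 CPM. In SKOV3 the leukocyte markers summed to 36.4 CPM in KO and 37.1 CPM in mock. The 7 fibroblast markers summed to 35.3 CPM in OVCAR3 KO and 20.6 CPM in OVCAR3 mock, nearly all from COL1A1. The 4 endothelial markers summed to at most 2.31 CPM in any library. The part of these differences in the member ratios was not tested.

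**Figure D4:**
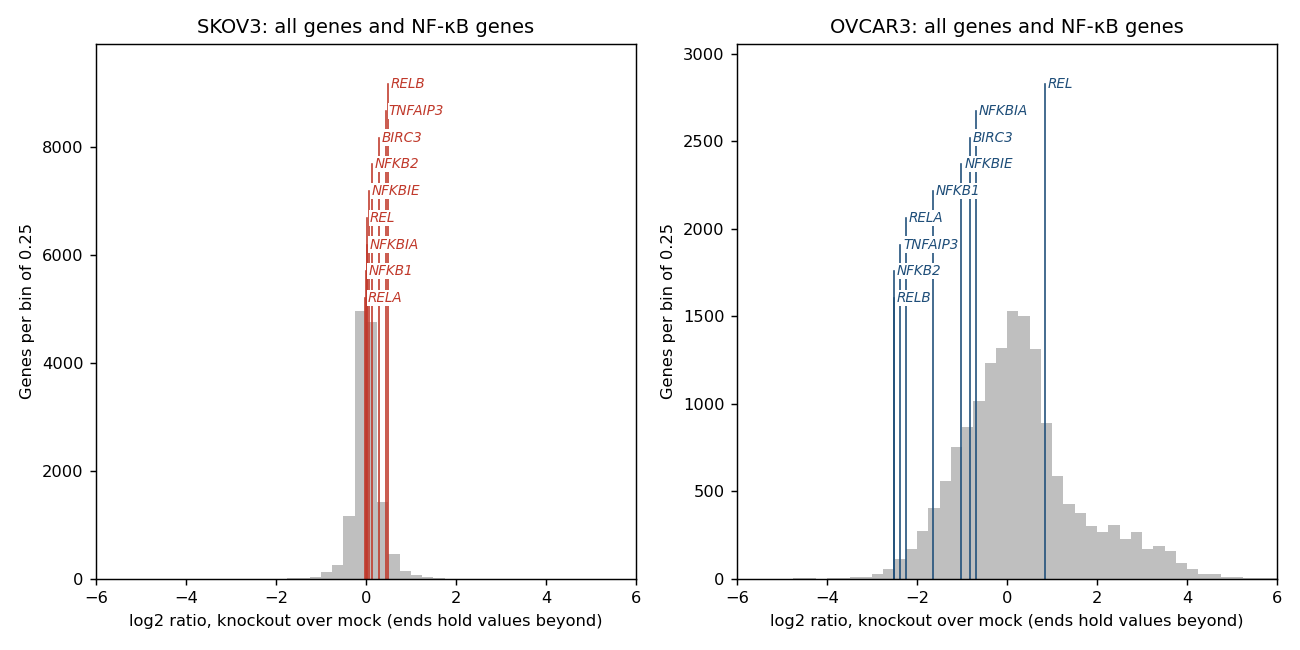
Histogram of the log2 ratio of knockout over mock for all measured genes in each line (bins of 0.25), with the NF-kB genes as vertical lines. In SKOV3 the members run from -0.02 (RELA) to 0.48 (RELB), with RELB, TNFAIP3 and BIRC3 right of the tallest bins. In OVCAR3 the distribution is broad and the members other than REL stand left of its median of 0.16.

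Relative to length (CPM per kb), the order of the members in OVCAR3 KO was not that in OVCAR3 mock. In OVCAR3 KO, NFKBIA (13.9 CPM per kb) and NFKB2 (13.8) led with overlapping intervals, followed by RELA (7.08), BIRC3 (3.94), NFKBIE (3.10), NFKB1 (2.68), REL (2.67), RELB (2.28) and TNFAIP3 (0.745). From BIRC3 to RELB in that order, the counting intervals of neighbours overlapped. In OVCAR3 mock the order was NFKB2 (79.6 CPM per kb), RELA (33.9), NFKBIA (22.5), RELB (13.3), NFKB1 (8.48), BIRC3 (7.06), NFKBIE (6.32), TNFAIP3 (3.96) and REL (1.48), with BIRC3 and NFKBIE overlapping. RELB stood above NFKB1 in OVCAR3 mock and next to last in OVCAR3 KO, and REL was last in OVCAR3 mock. In SKOV3 KO, RELA and NFKB2 led at 43.1 CPM per kb each, with overlapping intervals, and REL was last at 1.14. In SKOV3 mock, RELA led at 43.6 CPM per kb, NFKB2 followed at 39.2 beyond counting error, and REL was last at 1.12.

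Between the mock libraries, OVCAR3 over SKOV3, 8 of the 9 members differed less than between the knockout libraries, the exception being NFKBIA, at 0.42 between mock libraries and -0.29 between knockout libraries. NFKB2 was the widest apart, with a log2 ratio of 1.02 (0.96 to 1.09), and the others lay between -0.48 (TNFAIP3) and 0.42 (NFKBIA). Between the knockout libraries the ratios of OVCAR3 over SKOV3 ran from -3.30 for TNFAIP3 to 1.21 for REL, with RELA at -2.60 and RELB at -2.61. The range over the members was thus wider among the knockout libraries.

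The tests asked whether the knockout, over both lines, and the line changed a member beyond the spread of the 4 libraries. By edgeR's quasi-likelihood test with the line as a block (13693 genes, Benjamini-Hochberg adjustment, 1 residual degree of freedom), no member passed for the knockout, and neither did any other gene (0% called). The smallest unadjusted p among the members was 0.0815 for RELA, at a log2 fold change of -1.13, and the adjusted p was 0.957 for all 9. The fitted changes of NFKB2 (-1.19), RELB (-0.99) and TNFAIP3 (-0.92) lie between the ratios of the lines, which had opposite signs. At an unadjusted p under 0.05 there were 147 genes (1.07%) and 0 members, against 412 genes and 2 members by DESeq2, 315 genes and 0 members by limma-voom, and 124 genes and 0 members by robust edgeR. Without the SKOV3 KO library, in a fit with no line term that treats the mock libraries as replicates, 3 members passed as lower in the knockout: RELA (-2.45), RELB (-2.36) and TNFAIP3 (-2.67), beside 618 genes (4.51%). In that fit OVCAR3 KO is the sole knockout library. No member passed without any of the other 3 libraries, and without OVCAR3 KO the fitted changes were 0.15 for RELA, 0.17 for NFKB1, 0.28 for RELB, 0.67 for TNFAIP3 and -0.46 for NFKB2. The fit without OVCAR3 KO also has no line term and sets SKOV3 KO against both mock libraries, so line differences enter it. In the 4-library fit the residual is the difference between the 2 lines' knockout changes, so disagreement of the lines counts as error. The p-values above measure only the spread between these libraries, which may be technical in part.

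For the line, OVCAR3 over SKOV3, no member passed either, while 1 gene passed as lower (0.0073%) and 4 as higher (0.0292%). TNFAIP3 had the smallest adjusted p, 0.329 by edgeR, at a fitted log2 difference of -1.86, and RELA (-1.48) and NFKB1 (-1.21) had adjusted p of 0.368 and 0.378 by edgeR. These 3 had an unadjusted p under 0.05, as did 12.2% of all genes. The line result turned on single libraries: without OVCAR3 KO 5 members passed, beside 46.7% of all genes, and without OVCAR3 mock 8 did, beside 63.9%. Nothing particular to the members is read from either. Without OVCAR3 KO the fitted line differences moved to -0.36 for RELA, -0.38 for NFKB1 and -0.71 for TNFAIP3. That of NFKB2 was 0.95, against -0.30 with all libraries. The fit without OVCAR3 KO has no knockout term and sets OVCAR3 mock against both SKOV3 libraries, so knockout differences enter it.

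Upstream of the subunits, 25 ligands and receptors were listed and 14 could be measured in each pair. None was at least 2-fold different in SKOV3, and 3 (21.4%) were at least 2-fold lower in OVCAR3, near the 18.3% of protein-coding genes, with a median of -0.06. They were the receptors TNFRSF1A, which binds tumour necrosis factor, TNFRSF21 and TNFRSF12A, which binds TWEAK. TNFRSF1A had 73.2 CPM in SKOV3 KO and 90.3 CPM in SKOV3 mock, and 44.5 CPM in OVCAR3 KO against 145 CPM in OVCAR3 mock. It was below mock in both lines, with ratios of -0.30 (-0.41 to -0.20) in SKOV3 and -1.70 (-1.83 to -1.58) in OVCAR3. TNFRSF21 and TNFRSF12A were at -1.29 and -1.27 in OVCAR3 and -0.06 and 0.08 in SKOV3. With the GC and length trend removed, TNFRSF12A was at -0.89 in OVCAR3, short of 2-fold. On the other side, the interleukin-1 receptor genes IL1R1 and IL1RAP were at 0.71 and 0.47 in OVCAR3, and the cytokine gene IL18 was at 0.69, or -0.03 with the GC and length trend removed. In SKOV3 the ends of the list were CD40, a costimulatory receptor, at -0.43 (-0.77 to -0.12) and TLR3, a sensor of double-stranded RNA, at 0.74 (0.22 to 1.31).

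Of the 27 adaptors, ubiquitin-chain enzymes and IkB kinase genes, all 27 were measured in both lines, 6 (22.2%) were at least 2-fold lower in OVCAR3 and 1 higher, with a median of -0.35. The share lower is near the 18.3% of protein-coding genes, and the number was 3 with the GC and length trend removed, where IRAK1 was at -0.71, and 10 with TMM factors from all genes. In SKOV3 none passed in either direction. IRAK2, a kinase-like adaptor of interleukin-1 and Toll-like receptors, had 2.65 CPM in OVCAR3 KO against 13.1 CPM in OVCAR3 mock, and 12.8 CPM in SKOV3 KO against 13.4 CPM in SKOV3 mock. RBCK1 (HOIL-1), a part of the linear ubiquitin ligase, had 64.1 CPM in OVCAR3 KO against 235 CPM in OVCAR3 mock, and was below mock in SKOV3 too, at -0.36 (-0.49 to -0.24). The ratios in OVCAR3 were -2.26 for IRAK2, -1.87 for RBCK1 and -1.31 for the kinase IRAK1. TRAF5, a receptor-bound adaptor, was the member of this list above 2-fold, at 1.73 (1.48 to 2.01), with 32.3 CPM in OVCAR3 KO against 9.68 CPM in OVCAR3 mock. MYD88 and IRAK4, the core of the interleukin-1 receptor complex, were at 0.60 and 0.52. IKBKE, an IkB kinase relative, was the highest of the list in SKOV3 at 0.60 (0.17 to 1.07). MAP3K14 (NIK), the kinase that drives NFKB2 processing, was at 0.43 (0.27 to 0.59) in SKOV3 and -0.84 (-1.10 to -0.59) in OVCAR3, with the signs of NFKB2 and RELB. It was chosen after its values were seen, and its OVCAR3 ratio was -0.25 with the GC and length trend removed.

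The 17 further inhibitors and atypical IkB genes were not uniform. Of the 16 measured in OVCAR3, 4 (25%) were at least 2-fold lower and 2 (12.5%) at least 2-fold higher, with a median of -0.36. Among protein-coding genes 18.3% were lower and 13% higher, so neither share stands far from the background. BCL3, a nuclear IkB that binds p50 and p52, had 8.01 CPM in OVCAR3 KO against 35.7 CPM in OVCAR3 mock, a ratio of -2.14 (-2.45 to -1.87), and 24.5 CPM in SKOV3 KO against 18.1 CPM in SKOV3 mock, a ratio of 0.44 (0.23 to 0.64). TNIP1, a partner of A20, was at -1.75 in OVCAR3, and NKIRAS2, which binds IkB proteins, at -1.37. The nuclear IkB genes NFKBID and NFKBIZ went the other way, at 1.53 (0.94 to 2.29) and 0.99. TNIP3, another A20 partner, was the furthest above mock, at 2.79 (2.38 to 3.34), with 18.8 CPM in OVCAR3 KO against 2.62 CPM in OVCAR3 mock. In SKOV3 TNIP3 was at -0.40 (-0.91 to 0.07), and none of the list passed 2-fold. The partners of A20 thus lay on opposite sides of mock in OVCAR3.

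Of 38 listed targets, 24 were measured in OVCAR3, where 12 were at least 2-fold lower and none at least 2-fold higher, with a median of -0.97, beside 18.3% of protein-coding genes lower and 13% higher. Of those 12, 5 (CXCL1, CXCL2, CXCL3, CCL20 and PTGS2) reached 1 CPM in OVCAR3 mock only, so that they could enter the count by being lower alone. The target list, like the members, was chosen with earlier results of these data known. With a minimum of 5 CPM 7 targets were lower, and with the GC and length trend removed 10 were lower and 1 (TRAF1, an adaptor of receptor complexes) higher. In SKOV3 23 were measured, with a median of -0.07, and LCN2, a lipocalin, was the target that passed 2-fold, at 1.19 (0.30 to 2.44) from 23 counts in KO against 13 in mock. LCN2 reached 1 CPM in the knockout library only, and with a minimum of 5 CPM no target passed. CXCL8, the neutrophil-attracting interleukin-8, had 22.8 CPM in SKOV3 KO and 15.4 CPM in SKOV3 mock, and 5.91 CPM in OVCAR3 KO against 27.6 CPM in OVCAR3 mock. Its ratios were 0.56 (0.35 to 0.78) in SKOV3 and -2.20 (-2.57 to -1.89) in OVCAR3. CSF1, the macrophage growth factor, had the same signs, at 0.61 (0.29 to 0.95) in SKOV3 and -1.74 (-2.47 to -1.18) in OVCAR3. The stress kinase gene NUAK2 was the lowest of those with at least 100 counts in the pair, at -2.56 (-3.58 to -1.91) in OVCAR3. The highest by the same minimum were CFLAR, a brake on caspase-8, at 0.72, SOD2, the mitochondrial superoxide dismutase, at 0.50, and CD83, a dendritic cell marker, at 0.40. PLAU (urokinase) was the lowest target of at least 100 counts in SKOV3, at -0.34 (-0.48 to -0.21), and was at -1.49 in OVCAR3.

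**Figure D5:**
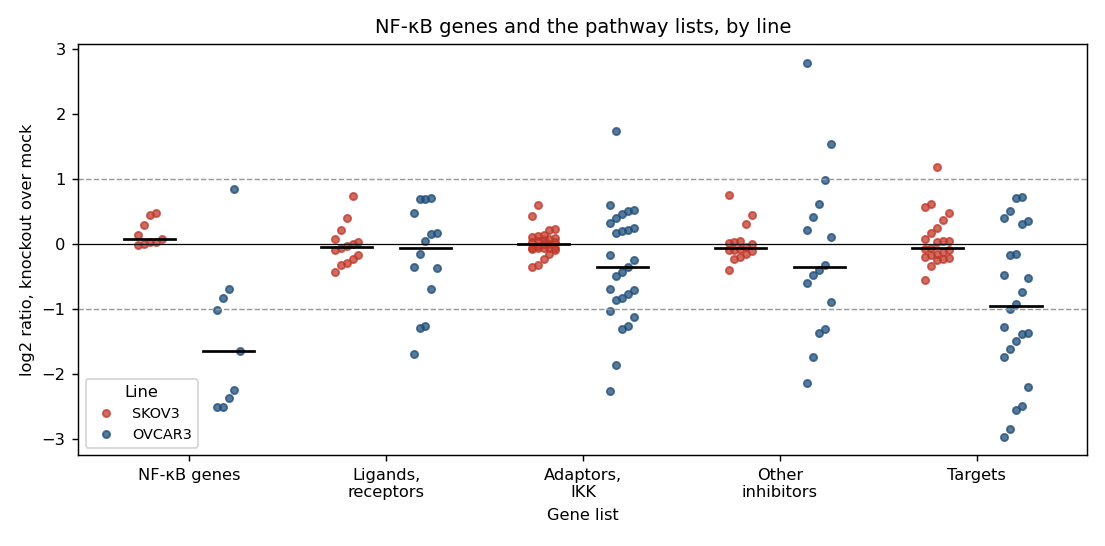
Log2 ratio of knockout over mock for the measured genes of the NF-kB members and of 4 pathway lists in each line, each point 1 gene and each bar the list median. In OVCAR3 the medians are -1.65 for the members, -0.06 for ligands and receptors, -0.35 for adaptors and kinases, -0.36 for other inhibitors and -0.97 for targets.

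By the root mean square distance of centred log2 CPM over the 4 libraries, among 11243 protein-coding genes, the pattern of NFKB2 was nearest to MISP (0.0319 log2 units), MAGED1 (0.0641) and AQP3 (0.0737). MISP, an actin-bundling protein of the mitotic spindle, had 65.6 CPM in SKOV3 KO and 57.9 CPM in SKOV3 mock, and 20.2 CPM in OVCAR3 KO against 123 CPM in OVCAR3 mock. The pattern of NFKBIA was nearest to EPHB4 (0.0093), a receptor tyrosine kinase, PIAS3 (0.0192) and FLYWCH2 (0.0212). EPHB4 had 57.3 CPM in SKOV3 KO and 55.8 CPM in SKOV3 mock, and 46.2 CPM in OVCAR3 KO against 74.8 CPM in OVCAR3 mock. With 4 libraries, of which 1 stands apart, near patterns are a description of these libraries only.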

How the data were processed

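Trizol served to extract RNA and a NEBNext Ultra II Directional kit to build libraries, per the labels' protocols. TopHat and the build GRCh38 were used, per the submitters' processing notes. Not given in the sources used here are the counting tool, its annotation and strand setting. The deposited values are raw counts per gene symbol, with no normalisation by the authors, in 58173 rows a library. The 2687 symbols in several rows were summed.

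Total counts were 15145483 (SKOV3 KO), 22057693 (SKOV3 mock), 15825915 (OVCAR3 KO) and 16298490 (OVCAR3 mock). They were scaled with TMM factors of edgeR 4.0.16 (R 4.3.3), 1.04, 1.02, 0.931 and 1.01 in that order, computed on genes that reached 1 CPM in 2 or more libraries. Log2 ratios used a prior count of 2. A gene was measured in a pair with CPM of at least 1 in 1 library and was called lower or higher at 2-fold. Intervals are exact (Clopper-Pearson, 95%) for the ratio of counts. A count of 0 allows up to 3 counts. Since reads had no molecular identifiers, both cover counting error only. All 4 libraries entered edgeR's quasi-likelihood test (line and knockout, adjusted p of at most 0.05, 13693 genes), which was tested on simulated data. A difference of the 2 pairs leaves no residual degree of freedom and is given untested. The GC and length trend is a spline with 5 degrees of freedom over protein-coding genes, with GENCODE 29 longest transcripts. Loci and promoters are from RefSeq GRCh38.p14, and 85.3% of symbols matched.

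Alternatives were DESeq2 1.42.0 size factors, no scaling, no filter, CPM of at least 5, mitochondrial genes left out and prior counts of 0.5 and 5. Further ones were folds of 1.5 and 3, the trend removed, DESeq2, limma-voom (limma 3.58.1) and robust edgeR. The fit was also run with the tested term alone, so with no line term for the knockout and no knockout term for the line. Each library was also left out in turn. TMM from all genes and the protein-coding background were added after seeing the data. Members and lists were chosen with earlier results of these data known. Named genes are all members, the 3 lowest and 3 highest OVCAR3 ratios and the lowest and highest SKOV3 ratio of each list with at least 100 counts in the pair, and the 3 genes nearest to NFKB2 and to NFKBIA. LCN2, which has fewer counts, and MAP3K14 were named after their values were seen.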

Additional observations from a re-analysis of the deposited data

Results flagged for a closer look

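For 4 of the 9 measured NF-kB genes the knockout library lay above mock in SKOV3 and below mock in OVCAR3, with both counting intervals clear of 0. With 1 library a group, the difference between the pairs was not tested. Over all genes measured in both pairs, 926 of 13294 (6.97%) did the same. These intervals are for the ratios as counted. With the GC and length trend removed the SKOV3 ratios were 0.06 for NFKB2, 0.38 for RELB, 0.45 for TNFAIP3 and 0.28 for BIRC3. The OVCAR3 ratio minus the SKOV3 ratio, in log2 units, was -2.66 for NFKB2, -3.00 for RELB, -2.82 for TNFAIP3 and -1.12 for BIRC3. The RELB and TNFAIP3 differences were the widest of the members. The mitochondrial share, 21.9% in OVCAR3 KO against 5.93% in OVCAR3 mock and 5.93% in SKOV3 KO against 5.16% in SKOV3 mock, moved with the same pair, and its part was not tested.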

How the results depend on the processing

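Every member ratio past 2-fold kept its direction under the scalings, filters and prior counts tried. In OVCAR3 6 members were at least 2-fold lower, and 7 with DESeq2 size factors or with TMM from all genes, which moved the median of all genes by -0.21 and -0.29. With the GC and length trend removed there were again 6, with BIRC3 (-1.48) in place of NFKBIE (-0.52), beside 12.9% of protein-coding genes. With no trend removed, 8 members were lower and 1 (REL) higher at 1.5-fold in OVCAR3, and 5 were lower at 3-fold. No member was called for the knockout under any setting with all 4 libraries. The number of all genes called for the knockout was 1 with no filter. The 5 genes called for the line were 0 with DESeq2 size factors, no scaling, mitochondrial genes left out or TMM from all genes. They were also 0 with no knockout term in the fit. The number was 226 with no filter, 61 at CPM of at least 5 and 184 by DESeq2. With no filter 1 member (TNFAIP3) was called for the line. Leaving out 1 library at a time gave 0 to 3 members and 0 to 618 genes for the knockout, and 0 to 8 members and 0 to 8746 genes for the line, in fits with 3 libraries. The NFKB2 line difference was then -1.57 without OVCAR3 mock and 0.95 without OVCAR3 KO, in fits with no knockout term, where knockout differences enter. A pair that loses a library gives no value. At 52 counts (TNFAIP3 in OVCAR3 KO) depth sets the widest member interval, and NFKBIB lies under the floor.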

Other observations

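Several genes of the pathway stand in more than 1 row of the count tables and had few counts even when their rows were summed. Tumour necrosis factor itself (TNF, 8 rows) and lymphotoxin beta (LTB, 8 rows) had 0 counts in all 4 libraries. Lymphotoxin alpha (LTA, 7 rows) had 12 counts in SKOV3 KO and 6 in SKOV3 mock, and 7 in OVCAR3 KO and 1 in OVCAR3 mock. NFKBIL1 (7 rows) had at most 1 count in a library, and the stress-response target IER3 (6 rows) at most 3. Whether these counts are a limit of the tables, as read for NFKBIB, or a low level of the genes was not tested. No level of these genes is drawn from them.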
